A study of Homo sapiens with 5 samples.

Results

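Rb occupancy was examined at the promoters of 59 genes that act in G2 and mitosis. The genes form a list of named factors with roles in this part of the cell cycle, drawn up with earlier results of these data known, and were compared with the other 19911 of the 19970 coding genes that lie on an autosome or X. A gene counted as bound in a library when a peak overlapped the stretch from 2000 bp before to 500 bp after any annotated transcription start site (TSS) of that gene. Each gene was then placed in a class by the set of Rb libraries that bound it.

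The cells were ZR-75-1, an established oestrogen receptor-positive breast cancer cell line, in its parental form. They were profiled by CUT&RUN, in which a nuclease is tethered through an antibody to the protein of interest, and the DNA it cuts free is sequenced. Parental cells received either DMSO, the vehicle, or the CDK4 and CDK6 inhibitor abemaciclib at 500 nM, over 4 days. Each treatment gave 2 Rb libraries, named here DMSO replicates 1 and 2 and abemaciclib replicates 1 and 2, and DMSO-treated cells also gave 1 library with an IgG2a antibody as the negative control. All groups share the cell line, so the values describe 1 line at 1 dose and 1 time.

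Rb is the pocket protein that CDK4 and CDK6 phosphorylate, and in its hypophosphorylated form it holds E2F factors in check at the promoters of cell cycle genes. Genes of DNA replication are the classical targets of E2F. Many genes of G2 and mitosis carry instead a cell cycle genes homology region (CHR), which is read by the MuvB core in the DREAM complex of quiescent cells and in its B-MYB and FOXM1 forms of cycling cells, commonly together with CCAAT boxes bound by NFY.

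The deposited peak lists held 1438 and 2582 peaks in DMSO replicates 1 and 2 and 13960 and 12234 peaks in abemaciclib replicates 1 and 2. The IgG2a list held 589 peaks, none of them over the promoter of a member. Median peak widths were 277 and 256 bp with DMSO and 755 and 726 bp with abemaciclib. Read depth is not stated in the lists. The fold and p-value of peaks with −log10 p of at most 40 imply a local background for each peak. Its most frequent value per library lay between 0.521 and 0.677 fragments per base across the 5 libraries. Single peaks can differ from it. For each peak the lists give a fold enrichment over local background and the −log10 of a p-value. Both depend on the depth of the library, so they are printed to describe each peak, and a difference in fold or −log10 p between libraries is not read as a difference in occupancy. Rank 1 is the strongest peak of a library, tied peaks share a rank, and the rank percentile runs from 0 for the strongest to 100 for the weakest. Percentiles refer to lists of very different length with DMSO and with abemaciclib, so they are read against the other genes of the same library and not between treatments. An exact permutation test of 2 libraries against 2 has a smallest two-sided p of 0.333, so differences between treatments are given as values in each library, without a test.

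Promoter sequence played no part in the rule for binding and is shown first. The CHR has the core TTTGAA, present near the TSS of 50 of 59 members and of 11.3% of the other coding genes. In a few genes it follows a cell cycle-dependent element (CDE), here GCGG, after 4 further bases. An exact match to this tandem lay between 250 bp upstream and 50 bp downstream of the canonical TSS in 6 of 59 members, which is 10.2%, and in 0.105% of the other coding genes. The 6 sites are given in GRCh38, 5′ to 3′ on the strand of the gene, with the CDE and the CHR in capitals. They lie at chr17:8210601-8210630 (minus strand, AURKB), chr5:138331821-138331850 (minus, CDC25C), chr10:60778449-60778478 (plus, CDK1), chr1:214603215-214603244 (plus, CENPF), chr14:55191569-55191598 (minus, DLGAP5) and chr1:163321954-163321983 (plus, NUF2).
AURKB: gggccgggGCGGgagaTTTGAAaagtcctt
CDC25C: ctgggctgGCGGaaggTTTGAAtggtcaac
CDK1: cctttagcGCGGtgagTTTGAAactgctcg
CENPF: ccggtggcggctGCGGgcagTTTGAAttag
DLGAP5: ggctcggtGCGGcaagTTTGAAtttcgtgg
NUF2: agtaggagGCGGcaagTTTGAAaagtgatg

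With abemaciclib, Rb peaks were called at nearly every promoter of the list. Members with a promoter peak numbered 15 in DMSO replicate 1 and 16 in DMSO replicate 2, and 58 in each abemaciclib library. Both abemaciclib libraries thus lay above both DMSO libraries in the lists as deposited. Cut to equal length, the lists had peaks at 12 members in each abemaciclib library, and at 15 and 12 with DMSO. That cut gives every library the same number of peaks, so a rise spread over all promoters cannot appear in it. Among the other coding genes a promoter peak was present in 7.81% and 12.4% with DMSO and in 57.9% and 53.7% with abemaciclib. The mean was 15.5 ± 0.707 members (SD, n = 2) with DMSO and 58 ± 0 (SD, n = 2) with abemaciclib. As a share of the list this was 26.3% ± 1.20 and 98.3% ± 0, beside 10.1% ± 3.24 and 55.8% ± 2.93 of the other coding genes.

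**Figure D1:**
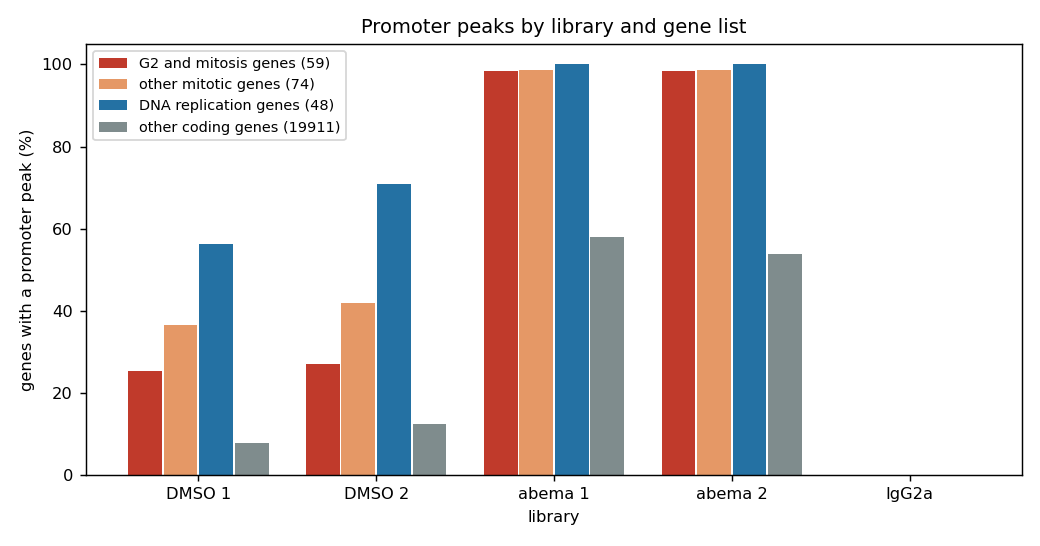
Percentage of genes with a promoter peak (y axis) in each of the 5 libraries (x axis), 1 bar per gene list, with no replicates within a bar. The members stand at 25.4% and 27.1% in the DMSO libraries and at 98.3% in both abemaciclib libraries, and no bar is visible for IgG2a, where 6 other coding genes had a peak.

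The members fell into 4 classes. All 4 Rb libraries bound 8 members, or 13.6%, beside 6.39% of the other coding genes. A further 15 members (25.4%) were bound in both abemaciclib libraries and in 1 DMSO library, beside 7.34%. The largest class, termed gained, comprised genes with peaks in the abemaciclib pair and none with DMSO, and it held 35 members (59.3%), beside 38.8%. BUB1 alone had no peak in any Rb library, a state shared by 40.8% of the other coding genes. Both abemaciclib libraries together bound 58 members (98.3%), beside 52.5%, and no member had any other pattern. Of genes with both abemaciclib peaks, 35 of 58 members and 7724 of 10458 other coding genes were gained, a lower share in the members. Bound in all 4 libraries were 8 of these 58 members and 1273 of these 10458 genes. With DMSO, 23 members (39.0%) had a peak in at least 1 library, beside 13.8% of the other coding genes.

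**Figure D2:**
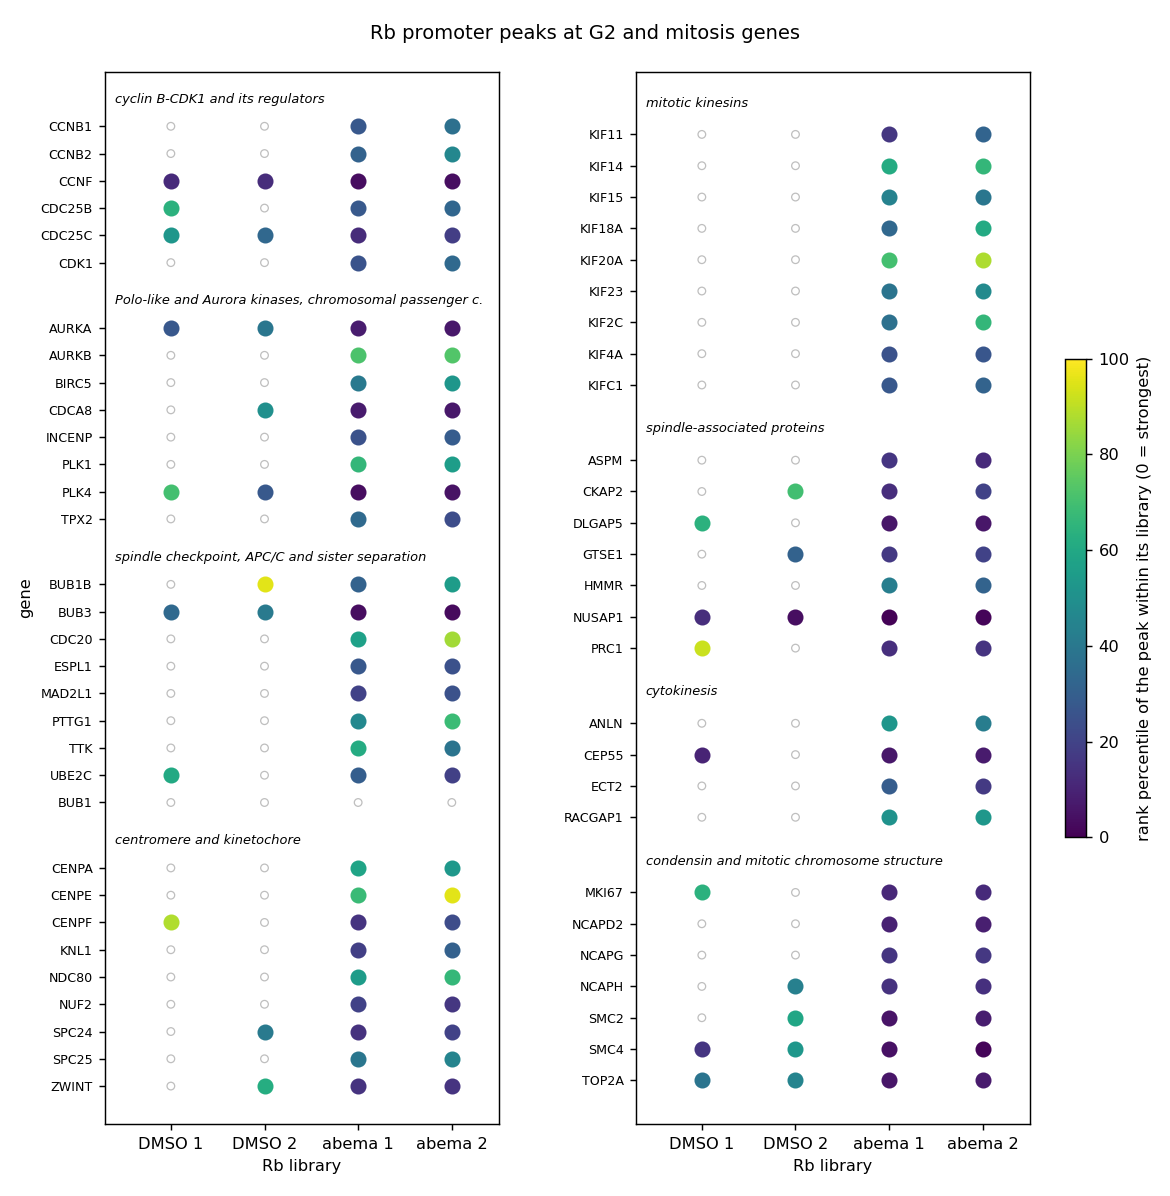
Each of the 59 members (y axis, grouped by role) in the 4 Rb libraries (x axis, abema for abemaciclib). Filled circles mark a promoter peak and are coloured by its rank percentile, open circles mark no called peak; the abemaciclib columns are filled for every gene but BUB1, and the 9 kinesins are open in both DMSO columns.

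A gained promoter here is one without a called DMSO peak, and the length of each list enters that call. When each Rb list was cut to its strongest 1438 peaks, the number of the shortest list, gained members fell from 35 to 2 and members without any peak numbered 38. Members bound per library were then 15 and 12 with DMSO and 12 and 12 with abemaciclib, or 13.5 and 12 on average. With the number of peaks fixed for every library, these counts cannot show whether binding rose with abemaciclib. The same cut left 1.11% of the other coding genes gained, and a promoter peak in 7.81% and 7.63% of them with DMSO and in 8.55% and 8.53% with abemaciclib.

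DMSO peaks at members ranged from just past the threshold to among the strongest of their lists. Their −log10 q had a median of 4.40 in DMSO replicate 1 (range 2.07 to 16.4, n = 15) and of 5.51 in DMSO replicate 2 (range 1.49 to 29.2, n = 16), and it was at least 5 in 7 and 10 of them. The 8 members bound in both lists were 53.3% of those bound in replicate 1 and 50% of those bound in replicate 2. The corresponding shares were 81.9% and 51.6% for the other coding genes, and 96.3% and 76.5% for 48 DNA replication genes. For 74 other mitotic genes they were 92.6% and 80.6%.

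The 8 members bound in all 4 libraries each had an exact CHR core, on either strand, in the promoter window. The 30-base sites nearest to the TSS are printed 5′ to 3′ on the strand of the gene with the core in capitals, and a core on the opposite strand reads TTCAAA. They are shown because these genes had a peak under either treatment. Their GRCh38 positions are chr20:56392201-56392230 (minus, AURKA), chr10:123154326-123154355 (plus, BUB3), chr16:2429350-2429379 (plus, CCNF), chr15:41332882-41332911 (plus, NUSAP1), chr4:127880913-127880942 (plus, PLK4), chr3:160399563-160399592 (plus, SMC4) and chr17:40418030-40418059 (minus, TOP2A), with CDC25C shown above. Of these, NUSAP1 and SMC4 also matched the E2F pattern.
AURKA: aaaagaagaaccTTTGAAttctaacggctg
BUB3: gagacgttggcgTTTGAAatcagccaatgg
CCNF: gggccgggtgcgTTTGAAaactggggtggg
NUSAP1: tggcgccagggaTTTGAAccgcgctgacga
PLK4: ggcaagcggcgggagattTTCAAAatggga
SMC4: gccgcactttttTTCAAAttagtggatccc
TOP2A: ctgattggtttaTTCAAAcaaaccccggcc

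Among cyclin B, CDK1 and their regulators, CCNF and CDC25C were bound in all 4 libraries, CDC25B in 3, and CCNB1, CCNB2 and CDK1 with abemaciclib only. Cyclin F, the product of CCNF, is a substrate receptor of the SCF ubiquitin ligase and not a partner of CDK1. Its DMSO peaks had rank 173 (fold 8.96, −log10 p 20.1) and rank 322 (fold 8.37, −log10 p 18.6). With abemaciclib they had rank 450 (fold 40.7, −log10 p 190) and rank 462 (fold 39.9, −log10 p 143). In percentiles CCNF stood at 12 and 12.5 with DMSO and at 3.22 and 3.78 with abemaciclib. CDC25C is a phosphatase that removes the inhibitory phosphates of CDK1. Its peaks had ranks 757 (fold 6.06, −log10 p 8.69) and 862 (fold 7.16, −log10 p 11.0) with DMSO. The abemaciclib ranks of CDC25C were 1699 (fold 34.4, −log10 p 87.3) and 2233 (fold 24.3, −log10 p 53.8). The start of FAM53C lies 131 bp from that of CDC25C, and the summits of these peaks lay nearer to it.

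CDC25B, a second phosphatase of CDK1, had a peak in DMSO replicate 1 at rank 919 (fold 5.46, −log10 p 7.5) and none in replicate 2. With abemaciclib its ranks were 3856 (fold 18.5, −log10 p 43.6) and 3982 (fold 15.2, −log10 p 31.3). CCNB1 encodes cyclin B1, the activating partner of CDK1 at mitotic entry. Its abemaciclib peaks had ranks 3776 (fold 20.5, −log10 p 45.0) and 4473 (fold 14.5, −log10 p 27.5). CDK1, the kinase itself, had ranks 3557 (fold 14.9, −log10 p 48.4) and 4116 (fold 11.9, −log10 p 30.7). The 3 core genes of the kinase, CCNB1, CCNB2 and CDK1, thus stood between the 25.5 and the 46.4 percentile with abemaciclib and had no called peak with DMSO. CDK1 also held a match to the E2F pattern upstream of its tandem, at chr10:60778340-60778369 (plus strand), with the match in capitals.
CDK1: ttcctctttctTTCGCGCtctagccacccg

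Of the Polo-like and Aurora kinases and their partners, PLK4 and AURKA were bound in all 4 libraries and CDCA8 in 3, while PLK1, TPX2, AURKB, BIRC5 and INCENP were gained. PLK4 starts centriole duplication. Its DMSO peaks had ranks 1008 (fold 5.25, −log10 p 7.35) and 712 (fold 7.35, −log10 p 12.3). Its abemaciclib peaks had ranks 464 (fold 50.1, −log10 p 188) and 604 (fold 36.0, −log10 p 125). PLK4 therefore stood at the 70.1 and 27.6 percentiles with DMSO and at 3.32 and 4.94 with abemaciclib. AURKA, the Aurora kinase of centrosomes, had ranks 390 (fold 7.71, −log10 p 12.5) and 1017 (fold 6.55, −log10 p 9.97) with DMSO. Its abemaciclib ranks were 1037 (fold 42.8, −log10 p 121) and 809 (fold 40.5, −log10 p 106). The AURKA summits lay nearer to the start of CSTF1, 156 bp away, than to that of AURKA.

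CDCA8 encodes borealin, a subunit of the chromosomal passenger complex. It had no peak in DMSO replicate 1 and rank 1286 (fold 5.91, −log10 p 8.66) in DMSO replicate 2. The abemaciclib ranks were 996 (fold 43.3, −log10 p 124) and 797 (fold 40.6, −log10 p 107), with summits nearer to the start of C1orf109, 267 bp away. The other subunits of the complex had weaker abemaciclib peaks and no DMSO peak. INCENP, its scaffold, had ranks 3502 (fold 21.7, −log10 p 48.4) and 3500 (fold 17.7, −log10 p 35.9). BIRC5, which encodes survivin, had ranks 5665 (fold 12.9, −log10 p 27.5) and 6415 (fold 9.68, −log10 p 17.3). AURKB, the kinase of the complex, lay lower still, with ranks 10012 (fold 6.64, −log10 p 9.88) and 8892 (fold 6.57, −log10 p 9.59). The 4 genes of this complex thus ran from the 6.51 to the 72.7 percentile.

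PLK1, the Polo-like kinase of mitotic entry, was among the weakest members, with abemaciclib ranks 9269 (fold 6.94, −log10 p 12) and 6778 (fold 8.86, −log10 p 16.0). TPX2, which activates Aurora A on spindle microtubules, had ranks 4751 (fold 14, −log10 p 34.6) and 2847 (fold 19.6, −log10 p 44). A CHR core was nevertheless present in the weakest gene pair of this role, PLK1 and AURKB. That of PLK1 is at chr16:23678848-23678877 (plus strand), and that of AURKB is part of the tandem shown above.
PLK1: cccagcgccgcgTTTGAAttcggggaggag

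In the spindle checkpoint and the machinery of sister separation, BUB3 was bound in all 4 libraries, BUB1B and UBE2C in 3, and MAD2L1, TTK, CDC20, PTTG1 and ESPL1 with abemaciclib only. BUB3, the partner of the BUB1 and BUBR1 checkpoint proteins, had DMSO ranks 487 (fold 7.28, −log10 p 11.2) and 1051 (fold 6.56, −log10 p 9.73). Its abemaciclib peaks were among the strongest of the list, with ranks 490 (fold 62.2, −log10 p 183) and 295 (fold 63.8, −log10 p 180). BUB1B, which encodes BUBR1, had a DMSO peak in replicate 2 that barely passed the authors' threshold, at rank 2463 (fold 3.92, −log10 p 5.05) and a −log10 q of 1.49. With abemaciclib it had ranks 4325 (fold 16.1, −log10 p 38.8) and 6697 (fold 9.12, −log10 p 16.4). At a q-value of at most 0.01 this DMSO peak was no longer called, and no other member changed its class.

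UBE2C, the ubiquitin-conjugating enzyme of the anaphase-promoting complex, had a peak in DMSO replicate 1 at rank 870 (fold 5.31, −log10 p 7.97). With abemaciclib its ranks were 4118 (fold 14.4, −log10 p 40.8) and 2386 (fold 21.9, −log10 p 50.9). MAD2L1, a checkpoint inhibitor of CDC20, had abemaciclib ranks 2739 (fold 21.3, −log10 p 61.0) and 3060 (fold 17.1, −log10 p 41.1). The gene of its target stood much lower in both libraries. CDC20, the activator of the anaphase-promoting complex, had ranks 7915 (fold 7.69, −log10 p 16.4) and 10559 (fold 4.69, −log10 p 6.99). ESPL1, which encodes separase, had ranks 3776 (fold 20.5, −log10 p 45.0) and 3017 (fold 19.7, −log10 p 41.1). CDC20 also differed the most between the abemaciclib libraries of all members, by 29.6 percentile points. TTK, the apical checkpoint kinase, had ranks 8535 (fold 8.46, −log10 p 13.8) and 4710 (fold 13.8, −log10 p 25.9). PTTG1 encodes securin, the inhibitor of separase, and stood at the 46.8 and 68.3 percentiles.

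BUB1, the checkpoint kinase at kinetochores, was the member without a peak. Its canonical TSS is at position 110678063 of chromosome 2, and the nearest peaks lay 439 kb away in both abemaciclib libraries and 1376 kb away in both DMSO libraries. The stretch without peaks around it covered 1.47 Mb in each abemaciclib library, from 109644833 to 111116930 in replicate 1 and from 109644655 to 111116976 in replicate 2. It held the canonical starts of 11 coding genes. These include RGPD5 with RGPD6 and LIMS3 with LIMS4, which are near-identical copies, so that the absence of peaks at those genes is uncertain. The lists do not state read coverage, so a lack of binding at BUB1 cannot be told apart from low coverage of the whole stretch. The BUB1 promoter had a GC content of 66.3% and a CpG observed-to-expected ratio of 0.941, beside member medians of 61.3% and 0.948. It held no match to the CHR or E2F pattern. The same was true of CDC25B, CENPE, KIF20A, KIF2C, NCAPH, PTTG1 and SPC24, which all had peaks in both abemaciclib libraries. A CCAAT box of BUB1 is at chr2:110678100-110678129 (minus strand), shown with the box in capitals.
BUB1: ctgccgccgccaCCAATgggcaggcgccct

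At centromeres and kinetochores no member was bound in all 4 libraries, 3 were bound in 1 DMSO library and both abemaciclib libraries, and 6 were gained. CENPF, a large kinetochore and nuclear matrix protein, had a peak in DMSO replicate 1 at rank 1269 (fold 4.33, −log10 p 6.15). Its abemaciclib ranks were 2080 (fold 25.2, −log10 p 75.9) and 2813 (fold 18.1, −log10 p 44.4). ZWINT, a partner of KNL1 at the outer kinetochore, had a peak in DMSO replicate 2 at rank 1595 (fold 5.15, −log10 p 7.44). The abemaciclib ranks were 2035 (fold 29.4, −log10 p 77.6) and 1830 (fold 25.3, −log10 p 62.9). KNL1, the scaffold of checkpoint signalling, had no DMSO peak, and its abemaciclib ranks were 2572 (fold 24.4, −log10 p 64.8) and 3774 (fold 15.6, −log10 p 33.2).

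The 4 subunits of the NDC80 complex, which holds microtubules, were spread over a wide range. SPC24 had a peak in DMSO replicate 2 at rank 1051 (fold 6.56, −log10 p 9.73), tied with that of BUB3. Its abemaciclib ranks were 2015 (fold 31.4, −log10 p 77.7) and 2417 (fold 23, −log10 p 50.1). The other 3 subunits were gained. NUF2 had ranks 2743 (fold 15.2, −log10 p 61.0) and 1923 (fold 16.9, −log10 p 61.0), SPC25 stood at the 39.3 and 45.0 percentiles, and NDC80 itself at 54.7 and 66.7. The start of METTL4 lies 48 bp from that of NDC80, the shortest such distance among the members. CENPA, the histone H3 variant of centromeres, had ranks 8147 (fold 9.06, −log10 p 15.1) and 6549 (fold 9.86, −log10 p 16.6). CENPE, a kinetochore motor of the kinesin family, had the weakest mean percentile of all gained members, with ranks 9470 (fold 6.42, −log10 p 11.1) and 11690 (fold 3.91, −log10 p 5.24).

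None of the 9 mitotic kinesins had a DMSO peak, and each was bound in both abemaciclib libraries. A DMSO peak was also missing at most other coding genes, of which 13.8% had one, and 23 of the 59 members had one. KIF11, the motor that separates spindle poles, was the strongest of them by mean percentile, with ranks 2219 (fold 24.1, −log10 p 72.1) and 3908 (fold 14.3, −log10 p 32.3). KIF4A, a chromokinesin, followed with ranks 3489 (fold 19.3, −log10 p 48.6) and 3280 (fold 17.1, −log10 p 38.4). The other 7 were the minus-end motor KIFC1, KIF15 of the bipolar spindle, the depolymerase KIF2C, KIF18A of chromosome alignment, and KIF14, KIF20A and KIF23 of the midzone and midbody. Their percentiles ran from 27 to 70.2 in abemaciclib replicate 1 and from 31.3 to 87.7 in replicate 2. KIF20A was the weakest of the 9 in both libraries. The median percentile of the 9 motors was 42.9, the highest of the 8 roles. KIF4A carries a CHR at chrX:70290058-70290087 (plus strand), with the core in capitals.
KIF4A: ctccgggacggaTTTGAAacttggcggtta

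Spindle-associated proteins ranked higher, with a median abemaciclib percentile of 14.4, and 5 of 7 had a DMSO peak. NUSAP1, which binds and bundles spindle microtubules, had the strongest member peak in DMSO replicate 2 and in abemaciclib replicate 1. With DMSO it had ranks 187 (fold 9.70, −log10 p 19.3) and 98 (fold 14.8, −log10 p 34.5). With abemaciclib it had ranks 89 (fold 88.1, −log10 p 343) and 160 (fold 67.9, −log10 p 226). In DMSO replicate 1 the peaks of CEP55 and CCNF stood above it, and in abemaciclib replicate 2 that of SMC4 did. Its peak in abemaciclib replicate 1 spanned chr15:41331732-41333403. The start of OIP5, a centromere factor, lies 290 bp from that of NUSAP1 under the same peaks. The NUSAP1 match to the E2F pattern, in capitals, is at chr15:41332697-41332726 (plus strand).
NUSAP1: ttacaggccctTTGGCGCctgcgtattcgt

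DLGAP5, a microtubule-binding protein of the spindle, and PRC1, which crosslinks midzone microtubules, each had a peak in DMSO replicate 1. For DLGAP5 it had rank 919 (fold 5.46, −log10 p 7.5), and the abemaciclib peaks had ranks 862 (fold 48.9, −log10 p 136) and 744 (fold 43.4, −log10 p 112). For PRC1 it had rank 1322 (fold 4.64, −log10 p 6), and the abemaciclib peaks had ranks 1899 (fold 31.9, −log10 p 81.1) and 1863 (fold 26.7, −log10 p 61.6). CKAP2 and GTSE1, both microtubule-associated, had a peak in DMSO replicate 2 instead. For CKAP2 it had rank 1802 (fold 5.14, −log10 p 7.17), with abemaciclib ranks 1804 (fold 30.6, −log10 p 84.3) and 2401 (fold 22.1, −log10 p 50.5). For GTSE1 it had rank 806 (fold 7.19, −log10 p 11.7), with abemaciclib ranks 2299 (fold 27.3, −log10 p 70.5) and 2404 (fold 22.5, −log10 p 50.5). The remaining members of this role were gained. ASPM, a spindle pole protein, had ranks 2129 (fold 18.8, −log10 p 75.0) and 1482 (fold 19.0, −log10 p 72.2), and HMMR, another microtubule-associated factor, stood at the 42.3 and 31.3 percentiles.

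In cytokinesis, CEP55, which recruits the abscission machinery to the midbody, had a strong peak in DMSO replicate 1 and none in replicate 2. That peak had rank 145 (fold 11.0, −log10 p 21.5), the strongest of any member in that library. The abemaciclib ranks were 886 (fold 34.4, −log10 p 134) and 902 (fold 30.1, −log10 p 99.0). A gene bound in a single DMSO library was therefore not always a weak peak there. ECT2, the exchange factor that activates RhoA at the midzone, was gained, with ranks 4046 (fold 19.3, −log10 p 41.6) and 2061 (fold 25.6, −log10 p 57.6). ANLN, a scaffold of the contractile ring, stood at the 52.7 and 42.1 percentiles and RACGAP1, a subunit of centralspindlin, at 50.5 and 52.8.

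Genes of condensin and mitotic chromosome structure had the strongest abemaciclib peaks of the 8 roles, with a median percentile of 8.68, and 5 of 7 had a DMSO peak. SMC4, an ATPase of condensin, had DMSO ranks 222 (fold 9.92, −log10 p 17.7) and 1366 (fold 5.62, −log10 p 8.47). Its abemaciclib ranks were 648 (fold 43.7, −log10 p 158) and 158 (fold 72.8, −log10 p 228). SMC2, its partner ATPase, had no peak in DMSO replicate 1 and rank 1531 (fold 5.43, −log10 p 7.64) in replicate 2. With abemaciclib it had ranks 747 (fold 49.5, −log10 p 146) and 990 (fold 36.2, −log10 p 93.1). Of the non-SMC subunits, NCAPH had a peak in DMSO replicate 2 at rank 1114 (fold 6.47, −log10 p 9.57) and abemaciclib ranks 1985 (fold 29.1, −log10 p 78.9) and 1712 (fold 28.3, −log10 p 65.2). NCAPD2 and NCAPG, which encode the other non-SMC subunits of condensin I, were gained. NCAPD2 had the strongest gained peaks, with ranks 1272 (fold 28.8, −log10 p 106) and 1009 (fold 28.5, −log10 p 92.2), nearer to the start of MRPL51, 261 bp away. NCAPG had ranks 2136 (fold 26.6, −log10 p 74.7) and 1996 (fold 24.2, −log10 p 59.4).

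TOP2A and MKI67, a topoisomerase and the surface layer protein of mitotic chromosomes, are both common markers of proliferating cells. TOP2A was bound in all 4 libraries, with DMSO ranks 551 (fold 6.96, −log10 p 10.6) and 1168 (fold 6.36, −log10 p 9.40). The abemaciclib ranks were 771 (fold 50.6, −log10 p 144) and 903 (fold 38.8, −log10 p 98.7). MKI67 had a peak in DMSO replicate 1 at rank 919 (fold 5.46, −log10 p 7.5), tied with CDC25B and DLGAP5, and none in replicate 2. With abemaciclib its ranks were 1537 (fold 36.2, −log10 p 93.2) and 1485 (fold 28.7, −log10 p 72). The second E2F match among members bound in all 4 libraries, in capitals, is that of SMC4 at chr3:160399509-160399538 (plus strand).
SMC4: cccgccaggagTTCGCGCatgcgcaggagc

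Over all members the median rank percentile was 52.6 and 41.9 in the DMSO libraries and 25.3 and 25.9 in the abemaciclib libraries. The other coding genes with a peak stood at 48.6, 44.6, 38.1 and 40.1 in the same order. Within its own library the member median was thus weaker than that of the other genes in DMSO replicate 1 and stronger in the other 3. In each abemaciclib library 12 of 58 members, or 20.7%, lay in the strongest 10% of peaks, beside 14.4% and 13.6% of the other bound coding genes.

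The abemaciclib rank differed by class in the members as it did in the other genes. Members with any DMSO peak had median percentiles of 11.0 and 12.1, beside 9.06 and 10.2 for the other coding genes with a peak in a DMSO library and both abemaciclib libraries. Gained members had 37.1 and 39.3, beside 43.9 and 50.1. Members bound in all 4 libraries had 4.08 and 4.36, beside 4.31 and 4.74. All 23 members with a DMSO peak stood in the stronger part of the abemaciclib replicate 1 list, at the 31.0 percentile or stronger. In replicate 2 only BUB1B exceeded 50, at 54.7. The other coding genes of this kind were alike, with 98.3% and 97.4% at the 50 percentile or stronger in abemaciclib replicates 1 and 2. The classes overlapped all the same, since the gained members NCAPD2, ASPM, NCAPG and NUF2 ranked above the DMSO-bound CDC25B in both abemaciclib libraries. Ranks of the 58 members in the abemaciclib libraries had a Spearman rho of 0.928, given as a description, beside 0.930 over 10458 other coding genes. The median absolute difference between them was 5.05 percentile points and the largest 29.6.

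**Figure D3:**
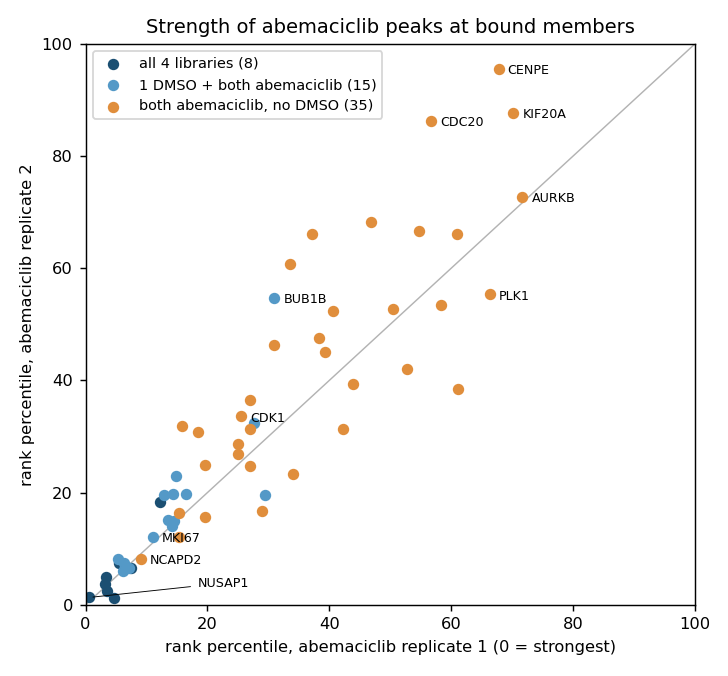
Rank percentile of the strongest promoter peak of each of 58 members in abemaciclib replicate 1 (x axis) and replicate 2 (y axis), 1 point per gene, coloured by class, with the line of equality. Members bound in all 4 libraries lie at 18.3 or below on both axes, and gained members run from 8.25 to 95.6.

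Beside the members, 74 further mitotic genes and 48 DNA replication genes were classified in the same way. Of the further mitotic genes, 25 (33.8%) were bound in all 4 libraries, 8 (10.8%) in 1 DMSO library and both abemaciclib libraries, 40 (54.1%) were gained, and ARHGAP11A had no peak. Of the replication genes, 26 (54.2%) were bound in all 4 libraries and 13 (27.1%) were gained. The share of members bound in all 4, 13.6%, was the lowest of the 3 lists, while between 98.3% and 100% of the genes of each list had a peak in both abemaciclib libraries. Replication genes had median percentiles of 19.7 and 17 with DMSO and 9.42 and 10.1 with abemaciclib, stronger than the members in each library. The further mitotic genes had 27.5 and 21.4 with DMSO and 18.5 and 26.0 with abemaciclib. In each abemaciclib library 31.5% of those with a peak lay in the strongest 10% of peaks, beside 20.7% of the members.

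**Figure D4:**
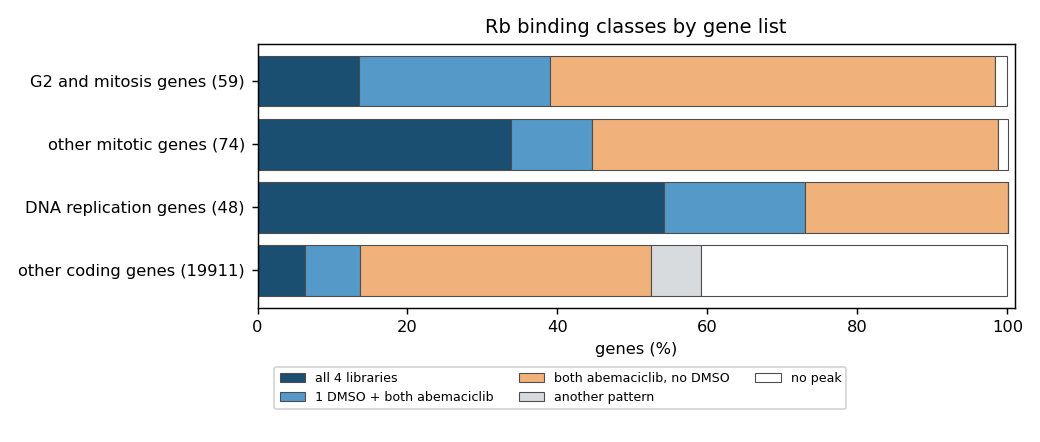
Percentage of genes in each Rb binding class (x axis) for the 59 members, 74 other mitotic genes, 48 DNA replication genes and 19911 other coding genes, the last including the 2 lists above it. The members have 13.6% in the class bound in all 4 libraries and 59.3% in the gained class; the replication genes have 54.2% and 27.1%.

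Rb summits lay close to the starts of the members. The median position relative to the canonical TSS was −153 and −85 bp with DMSO and −62 and −83 bp with abemaciclib. Summits within 300 bp of it numbered 13 of 15, 14 of 16, 54 of 58 and 50 of 58 in the same order, or 86.7%, 87.5%, 93.1% and 86.2%. The other bound coding genes had 67.5%, 70.5%, 70.3% and 69.6%. In abemaciclib replicate 1, 33 summits lay upstream of the canonical transcript, 15 in a UTR exon, 2 in a coding exon and 8 in an intron. The corresponding numbers in replicate 2 were 39, 7, 4 and 8. Median peak widths at members were 926 and 912 bp with abemaciclib, beside 926 and 863 bp at other genes.

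At 16 of 58 members the abemaciclib peak also covered the promoter window of another coding gene. The starts of these neighbours lay between 48 bp (METTL4, next to NDC80) and 530 bp (NUDCD2, next to HMMR) from that of the member. Such a peak cannot be given to 1 of the genes from the list. The share of such peaks over the other coding genes is not given, so the count is not read as a trait of the members. When a peak was counted only for the gene with the TSS nearest to its summit, AURKA, CDC25C, CDCA8, KIF18A and NCAPD2 lost every peak, and NDC80 and KIF20A kept 1 abemaciclib peak each. Members without a peak then numbered 6, BUB1 included. This alternative was chosen after the data were examined.

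The CHR core was the commonest of the searched patterns in the members' promoters. Exact matches on either strand were sought between 250 bp upstream and 50 bp downstream of the canonical TSS. TTTGAA was present in 50 of 59 members, 84.7%, and in 11.3% of the other coding genes. CCAAT was present in 47 members, 79.7%, beside 35.9%, and both together in 40 members, 67.8%, beside 4.73%. The E2F pattern TTNNCGC, with each N being C or G, was present in 18 members, 30.5%, beside 17%. None of CHR, CCAAT or E2F was found in 2 members. A match is a description of the sequence and not evidence of a bound site, and the tandem of CDE and CHR overlaps the CHR count by construction. In NUF2 and DLGAP5 the E2F match, on the opposite strand, covers the CDE of the tandem and is not a separate site.

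**Figure D5:**
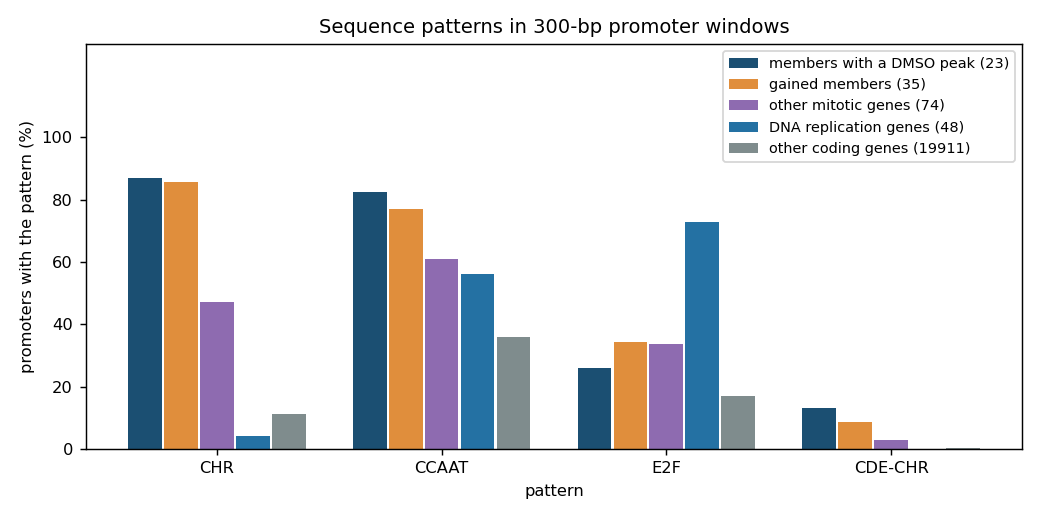
Percentage of promoters with each pattern (y axis) for 4 patterns (x axis) in members with a DMSO peak, gained members, other mitotic genes, DNA replication genes and other coding genes. CHR stands at 87.0% and 85.7% in the 2 classes of members and at 4.17% in replication genes, where E2F stands at 72.9%.

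In this promoter window the shares with CHR and CCAAT lay close together in members with a DMSO peak and gained members. CHR was present in 20 of 23 members with a DMSO peak (87.0%) and in 30 of 35 gained members (85.7%). CCAAT was present in 19 of 23 and 27 of 35. E2F was present in 6 of 23 (26.1%) and 12 of 35 (34.3%). In the other coding genes E2F was found in 32.4% of those with a DMSO peak, in 20.8% of those gained and in 8.44% of those without any peak. CHR went the other way there, with 7.27%, 7.83% and 16.4% in the same order, so it was commonest in genes without a peak. The replication genes showed the opposite make-up to the members, with E2F in 35 of 48 (72.9%) and CHR in 2 of 48 (4.17%). The other mitotic genes lay between, with CHR in 35 of 74 (47.3%) and E2F in 25 of 74 (33.8%).

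The nearest CHR core had a median position of −21 bp from the TSS, with a range of −164 to 40 bp, and lay within 50 bp of it in 41 of 50 members. It fell inside the abemaciclib peak in 49 of 50 members in replicate 1 and in 48 of 50 in replicate 2. These peaks had median widths of 926 and 912 bp and lay near the TSS, so most sequence near the TSS falls inside them. The overlap therefore does not place Rb at the core, and no share for other coding genes is given. With DMSO, where the peaks are narrower, the core fell inside the peak in 8 of 14 and 6 of 14. The median distance from summit to core was 99 and 133 bp with DMSO and 107 and 128 bp with abemaciclib. In the 200 bp around the summits of abemaciclib replicate 1, the core was present in 41.4% of members, 21.9% of the other mitotic genes and 3.45% of the other coding genes with a peak. By class the window around the summit gave another picture than the promoter window, with CHR in 6 of 23 members with a DMSO peak (26.1%) and in 18 of 35 gained members (51.4%). E2F changed its order, with 7 of 23 (30.4%) and 6 of 35 (17.1%), while CCAAT was present in 10 of 23 and 14 of 35. CCNB2, which encodes cyclin B2 and whose abemaciclib peaks stood at the 30.9 and 46.4 percentiles, shows such an offset. Its summits lay 289 and 290 bp downstream of the TSS, and its CHR, in capitals, lies just upstream of it at chr15:59105105-59105134 (plus strand).
CCNB2: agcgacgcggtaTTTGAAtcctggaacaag

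The base composition of the members' promoters also differed from that of the bound genes in general. Their median GC content was 61.3%, beside 63.7% in all other coding genes, 67.0% in those with a DMSO peak and 67.3% in those gained. Their median CpG observed-to-expected ratio was 0.948, beside 0.775, 0.882 and 0.870. Other coding genes without any peak had 56.0% and 0.375. Composition was also similar between members with a DMSO peak (60.7% and 0.967) and gained members (61.3% and 0.941). The part of base composition in the shares of matches was not tested.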

How the data were processed

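Rb CUT&RUN peak lists from ZR-75-1 cells were analysed: 2 libraries each for DMSO and 500 nM abemaciclib (4 days) and 1 IgG2a library, grouped by sample title. The authors trimmed reads with BBDuk, aligned them to GRCh38 (hg38), removed mitochondrial and blacklisted reads, kept duplicates, and called peaks in each library with MACS2 at a q-value of 0.05 with IgG controls. The submitters' processing notes name Bowtie2 2.3.4.1, MACS2 2.2.7.1, deepTools 3.5.0 and DiffBind. The deposited lists give a fold enrichment (a ratio of pileup to local background), the −log10 of a p-value and of a q-value, and a score derived from the latter, all as the authors' peak caller wrote them. These values depend on library depth, which the lists do not state. Coordinates are counted from 1.

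A promoter was the stretch from 2000 bp before to 500 bp after any GENCODE 44 TSS, and an overlap of 1 bp counted as bound. The strongest promoter peak of a gene by −log10 p gave its rank. Background coverage was solved from the fold and p-value of peaks with −log10 p of at most 40. The most frequent value of each library was kept. Sequence came from the GRCh38 reference. Python 3.11.15, numpy 2.4.6, pandas 2.3.3, scipy 1.17.1 and matplotlib 3.10.9 were used, and the scripts were tested on simulated data. Peak lists hold no counts over common regions, so no model was fitted.

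The members, the role groups and the comparison lists were chosen with earlier results of these data known. Values in every library were printed for the members bound in all 4 libraries (at most 12), those bound in 1 DMSO library and both abemaciclib libraries, the 12 gained members with the lowest mean percentile, any member with another pattern, and 16 central genes fixed by name. The other members are given by percentile. Alternatives changed the q-value limit, list length, overlap, window, TSS set, IgG2a filter, ranking and motifs, and left out each Rb library in turn.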

Additional observations from a re-analysis of the deposited data

How the results depend on the processing

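Across 14 results and 119 alternatives, 98 values stayed within 1.5 times or the replicate spread. At a q-value of at most 1e-05, members bound in all 4 libraries numbered 5, those bound in 1 DMSO library 7 and those bound per DMSO library 8.5 on average, 3.18% of other coding genes were bound in all 4, the median abemaciclib percentile was 30.8, and 17 members changed class. With each list cut to 1438 peaks, 47 members changed class: 2 were gained, 3 bound in 1 DMSO library, 38 unbound, and 12 were bound per abemaciclib library against 13.5 per DMSO library, no longer higher with abemaciclib, with 1.11% of other coding genes gained. Fewer peaks enter by construction. The cut also makes all lists equally long, so its counts cannot show a rise spread over all promoters. Counting only peaks nearest to the member's own TSS, chosen after the data were examined, left 6 members unbound. No member changed class with the summit inside the window, 400-bp summit windows, canonical TSSs, 500 bp on each side of the TSS or without peaks overlapping IgG2a. The IgG2a filter could hardly change a class, since no IgG2a peak lay over a member's promoter. Without 1 library, members bound in all remaining libraries numbered 8 to 16 (16 without DMSO replicate 1, 15 without DMSO replicate 2), and other coding genes 6.39% to 12.3%. Ranked by fold, the median percentiles were 39.2 with DMSO and 26.5 with abemaciclib, and among bound coding genes 34.2 with abemaciclib. The longer E2F pattern was present in 6.78% of members, beside 4.36% of other coding genes and 47.9% of replication genes. In 200-bp summit windows CHR and CCAAT were each present in 41.4% of members and the tandem in 3.45%, beside 3.45%, 19.5% and 0.0694% of other bound coding genes. The cause of these shifts was not tested. No paired analysis was possible because no test underlies these results and the labels tie no DMSO library to an abemaciclib library beyond a number. A binding event just short of the threshold counts as no peak, and unstated depth limits every absence.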

Other observations

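Rb peaks away from promoters were assigned to 5 members (8.47%) and to 12.9% of the other coding genes. Among peaks outside the promoter windows of all coding genes, those with a member as the gene of the nearest TSS belonged to AURKB, BUB3, CCNF, NCAPD2 and NCAPH. The NCAPD2 peak was present in both abemaciclib libraries, 2406 and 2438 bp from the nearest TSS, with ranks 11842 (fold 4.47, −log10 p 6.92) and 11641 (fold 3.99, −log10 p 5.38), far below its promoter peaks. The others were each called in a single library.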
